A study of Mus musculus with 34 samples.

Results

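The genes described here encode the proteins of the cytosolic ribosome. Members were all probesets listed with a single gene symbol made of Rpl or Rps followed directly by digits, together with Rpsa, Rplp0, Rplp1 and Rplp2, without pseudogenes and without the Rps6k kinases. They came to 63 of the 19938 genes measured, each represented by its probeset of highest mean signal. Of these 63, 21 encode proteins of the small 40S subunit, 30 encode proteins of the large 60S subunit and 3 (Rplp0, Rplp1 and Rplp2) form the P stalk. These 54 are called the core genes below. A further 7 are second or tissue-restricted copies (Rps27l, Rpl10l, Rpl32l, Rpl3l, Rps4l, Rpl7l1 and Rpl39l). The remaining 2, Rps19bp1 and Rps23rg1, carry matching symbols without encoding ribosomal proteins and were counted apart.

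The study followed mouse pre-B acute lymphoblastic leukaemia lines from BCR/ABL transgenic mice as they became tolerant to a drug while growing on irradiated mouse embryonic fibroblasts in medium with interleukin-3. Line 8093 comes from inbred C57Bl/6J mice and line Bin-2 from mice of mixed background, so each background is represented by 1 leukaemia. Each line received nilotinib, which inhibits the ABL tyrosine kinase (at 20 nM in line 8093 and at 50 nM in Bin-2), or lonafarnib, which inhibits farnesyltransferase (at 1 µM in 8093 and at 0.25 µM in Bin-2). Cells were taken before drug (day 0, the start), at a midpoint when most cells were dead by Trypan blue, and at an end when viability was about 90%. The midpoint was day 3 for 8093 with nilotinib and for Bin-2 with either drug, with 5 to 10% viable cells, and day 4 for 8093 with lonafarnib, with 20% viable cells. The end was day 20 for 8093 with nilotinib, day 26 for 8093 with lonafarnib, day 21 for Bin-2 with nilotinib and day 30 for Bin-2 with lonafarnib. All cultures carried BCR/ABL and shared the feeder layer and the interleukin-3, and only cells in the medium or loosely attached to the feeder were taken. RNA of 34 separate plates was measured, 3 in each of 10 groups and 2 in both 8093 end groups, and midpoint RNA came from larger or pooled dishes.

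Ribosomal proteins are made in near-equal amounts and assembled with ribosomal RNA in the nucleolus, and their genes are usually regulated together. Their messages begin with a run of pyrimidines, the 5' terminal oligopyrimidine (TOP) motif, through which the kinase mTORC1 and the RNA-binding protein LARP1 set how much of each message is stored and translated. Free RPL5 and RPL11, bound to 5S RNA, inhibit the p53 ligase MDM2, so that ribosome assembly and p53 are linked. In leukaemia driven by BCR/ABL the kinase feeds the same growth pathway through PI3K and mTOR.

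The start regions of 6 members on which the results below turn are shown, 30 bases on either side of the RefSeq start, in build GRCm38.p6 and on the strand of the gene. Capitals mark the longest run of C and T in the window, and the first of them where runs tie, as in Rps27l. The first 4 belong to the 6 core genes that fell at least 2-fold at the 8093 nilotinib end, of which Rps20 and Rps3 are not shown. Rps27l is the copy with the largest fall, and Rps3a1 differed most between the lines.
Rplp2, chr7:141447621-141447680, plus strand: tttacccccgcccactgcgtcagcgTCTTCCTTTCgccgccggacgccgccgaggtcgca
Rps13, chr7:116334161-116334220, minus strand: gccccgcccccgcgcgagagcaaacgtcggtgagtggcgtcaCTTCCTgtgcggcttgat
Rpsa, chr9:120127736-120127795, plus strand: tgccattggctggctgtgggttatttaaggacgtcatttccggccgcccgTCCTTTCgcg
Rps12, chr10:23787180-23787239, minus strand: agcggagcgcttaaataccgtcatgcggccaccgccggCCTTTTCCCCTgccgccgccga
Rps27l, chr9:66946056-66946115, plus strand: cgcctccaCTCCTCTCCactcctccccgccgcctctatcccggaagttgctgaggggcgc
Rps3a1, chr3:86142639-86142698, minus strand: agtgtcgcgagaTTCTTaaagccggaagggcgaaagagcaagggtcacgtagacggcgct

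The longest run held 10 bases for Rplp2, 6 for Rps13, 7 for Rpsa, 11 for Rps12, 9 for Rps27l and 5 for Rps3a1. In the same order the runs began at base -5, 13, 21, 9, -22 and -18 from the RefSeq start, negative numbers lying upstream. None began at that start, and those of Rps27l and Rps3a1 lay wholly upstream of it. Whether the capitals mark TOP motifs was not tested. RefSeq promoters were found for 43 of the 54 core genes, 50 promoters in all. A run of 8 or more C or T bases lay within 30 bases of the start in 22 of these 50 (44.0%) and in 22.9% of all 32851 mouse promoters. The letters CTTTCC, read on the gene's strand within 50 bases of the start and themselves part of a C and T run, were present in 24.0% of core promoters and in 4.69% of all. CCGGAAG, the core letters bound by ETS factors such as GABP, was present on either strand of the 300-base promoter in 36.0% against 8.86%, and the E-box CACGTG, which reads the same on both strands, in 14% against 7.15%. These are matches of letters and do not show that a factor was bound.

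Core genes were bright on these arrays: the median of their mean log2 signals was 11.03 (range 7.17 to 12.81), the median of all genes was 5.45, and 49 of the 54 lay among the 1994 genes of highest signal, the brightest 10%. Signals of different probesets are not amounts and are not set against each other below. Ribosomal protein genes have many near-identical processed copies in the genome, so a probeset may also read RNA of a copy. Of the 63 members, 39 had several probesets, 219 in all over the 63, and in none of the 12 comparisons over time were 2 probesets of a member called in opposite directions. Another 239 probesets listed with several symbols, among them a member, were not used. Rpl11, Rps27, Rpl22l1, Rpl39, Rpl3 and Rps27a had no probeset of a single symbol and are not analysed here.

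The arrays of 2 groups stood apart. The interquartile range of all probeset values averaged 3.03 at the 8093 nilotinib midpoint and 3.16 at the Bin-2 lonafarnib midpoint, and 3.42 to 3.55 in the other 10 groups, so bright and dim genes lay closer together on those arrays. Both had 5 to 10% viable cells, as did the Bin-2 nilotinib midpoint, whose range was 3.45. Directions at the narrow midpoints are given with and without scaling of the arrays to a common interquartile range. The shares of all genes that rose or fell are those of the deposited signals, so counts of members after scaling stand without such a share. The 2 arrays of the 8093 nilotinib end also differed from each other, with mean core signals of 10.10 and 10.55.

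The labelled pre-B cells were checked with marker genes. At the 8093 nilotinib end 10 of 11 measured pre-B markers fell and 1 rose, with a median change of -4.16. Cd79a, part of the B-cell receptor, went from a mean of 9.57 at the start to 5.33, near the median of all genes. All 10 mast cell markers rose there, with a median change of 7.58, and 8 of 9 macrophage markers rose, with a median change of 4.66. At the 8093 nilotinib midpoint the mean level of the pre-B markers was 8.27 to 8.84 per array against 8.61 to 8.88 at the start, while all 10 mast cell markers, 8 of 9 macrophage markers and 7 of 10 fibroblast markers rose (5 of the last after interquartile scaling). At the Bin-2 nilotinib end 9 of 10 mast cell markers and all 9 macrophage markers rose, and the mean of the pre-B markers stayed between 9.39 and 9.67 per array. The means of 7 T and NK cell markers lay between 3.91 and 4.35 in all 12 groups, and those of 7 granulocyte markers between 3.94 and 4.48. In such bulk samples fewer cells of a type and less RNA per cell cannot be told apart, and the part of these other cells in the results below was not tested.

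The mean signal of the 54 core genes on each array gave the outline of the results. In 8093 with nilotinib it was 11.01, 10.82 and 10.77 at the start, 10.42, 10.30 and 10.64 at the midpoint and 10.10 and 10.55 at the end. All 5 treated arrays lay below all 3 start arrays. In 8093 with lonafarnib it was 11.13, 10.92 and 11.09 at the start, 10.90, 10.86 and 10.81 at the midpoint and 11.03 and 10.91 at the end. The end arrays overlapped those of the start, and the midpoint arrays lay just below them. In Bin-2 with nilotinib the values were 10.90, 10.86 and 10.84, then 10.63, 10.74 and 10.72, then 10.98, 10.73 and 10.67. In Bin-2 with lonafarnib they were 10.97, 10.73 and 10.74, then 10.71, 10.63 and 10.64, then 10.71, 10.72 and 10.70. Bin-2 arrays thus spanned 10.63 to 10.98. The midpoint arrays of both Bin-2 courses lay below all their start arrays, as did the end arrays with lonafarnib.

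**Figure D1:**
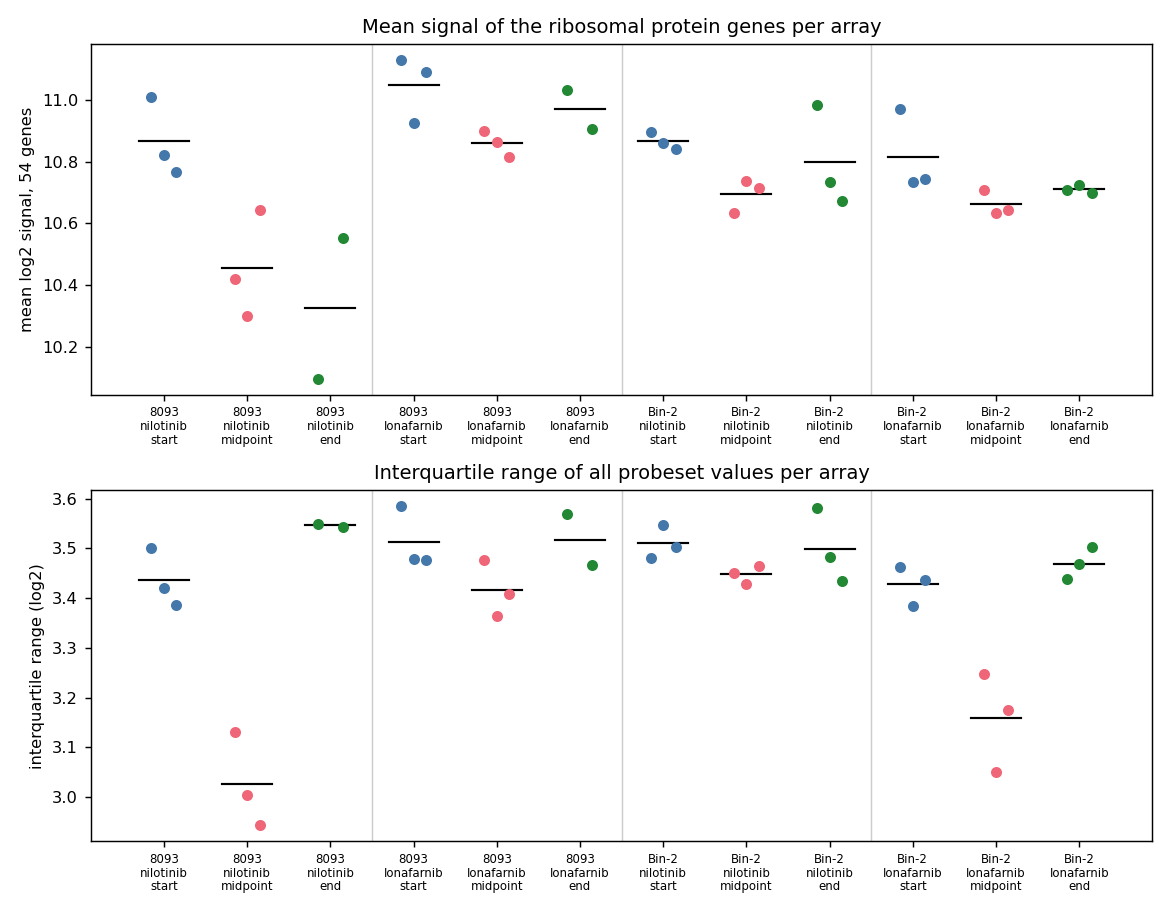
Upper plot: mean log2 signal of the 54 core ribosomal protein genes on each array (points) with group means (lines), for the start, midpoint and end of each line and drug. Lower plot: interquartile range of all probeset values on each array, in log2 units. The 8093 nilotinib midpoint and end arrays lie at 10.10 to 10.64, below their start arrays at 10.77 to 11.01. The arrays of the 8093 nilotinib midpoint and the Bin-2 lonafarnib midpoint have the narrowest ranges, and after scaling to a common range the median change of the core genes from the start was 0.47 and 0.42 at those midpoints, above zero, although single core genes such as Rpl30 and Rps15a stayed below it.

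Changes were tested with limma across all 19938 genes, and a member was called when its p adjusted by the Benjamini-Hochberg method over all genes was below 0.05. The plates' number limits the precision: the median standard error of a core change was 0.14 to 0.16 in log2 units for the 8093 nilotinib comparisons with the start. Counts of members with an unadjusted p below 0.05 are given below without the same share over all genes, and are not read as results.

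The first comparison asked what became of these genes when nilotinib had killed most 8093 cells. At this midpoint 40 of the 63 members fell and 3 rose on the signals as deposited, with 27.5% of all genes falling and 22.6% rising (50.1% in all), but when arrays were scaled to a common interquartile range 32 members rose and 13 fell. The median core change was -0.45 as deposited and 0.47 after that scaling. The medians of all genes were 0.03 and -0.24. Centring the arrays on their medians moved the median of all genes to -0.19 and gave 1 member up and 49 down. The brightest 10% of genes, to which most core genes belong, had the same median as the core genes, -0.45, and 61.9% of them fell. Which way the core genes as a group moved at this midpoint was therefore not settled, since the interquartile scaling turned it. That scaling turned Rpl39l, Rpl5, Rpl10, Rps4x, Rps6, Rplp0, Rplp1 and Rpsa here, and quantile normalization turned none of these.

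Within the group, 14 of 21 genes of the 40S subunit, 18 of 30 of the 60S subunit and all 3 of the P stalk fell on the deposited signals, a direction that the interquartile scaling turned for Rplp0 (0.61) and Rplp1 (0.29). Single members moved the same way in all 8 alternative settings that gave them a value, interquartile scaling included. The largest fall was that of Rps27l, a copy of Rps27 known as a target of p53. Its signals were 9.26, 9.13 and 9.05 at the start and 7.20, 7.49 and 7.46 at the midpoint, so the groups were far apart. The change was -1.76 ± 0.15 (SE; adjusted p = 9.35e-11) and ranged from -1.98 to -1.40 over the alternatives. Rpl30, a small 60S protein, fell by 1.13 ± 0.14 on the log2 scale (adjusted p = 4.36e-08), from 9.72, 9.83 and 9.69 to 8.77, 8.77 and 8.31. Rpl22, a 60S protein whose loss blocks lymphocyte development and is found in T-cell leukaemia, fell by 0.96 ± 0.15 (adjusted p = 3.5e-06), from 9.41, 9.02 and 8.82 to 8.24, 7.97 and 8.17. Rpl12, at the base of the stalk, fell by 0.84 ± 0.19 (adjusted p = 0.000571), from 7.80, 7.21 and 7.71 to 7.04, 6.55 and 6.61. No array of the midpoint overlapped the start for any of these 4 genes. The falls were smallest at -0.73 for Rpl30 (interquartile scaling) and at -0.60 for Rpl22 (quantile normalization), and were still called there.

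Rps19, the 40S protein most often mutated in Diamond-Blackfan anaemia, went the other way. Its signals were 8.46, 8.19 and 8.07 at the start and 8.69, 8.95 and 9.76 at the midpoint, a rise of 0.89 ± 0.27 (adjusted p = 0.00713) that was also called under all 8 alternatives. The third midpoint array was the highest, and without it the change was 0.58 with an adjusted p of 0.0961. The same array was also the highest for Rpl29, a basic 60S protein, which was at 9.57, 9.24 and 9.30 at the start and at 9.96, 9.47 and 10.53 at the midpoint and was called at 0.62 although its arrays overlapped. Rpl39l, a copy of Rpl39 used in the testis, rose by 0.54 ± 0.15 (adjusted p = 0.00298) from 2.81, 2.77 and 2.99 to 3.63, 3.24 and 3.31, all dim signals, and its change was -0.14 with interquartile scaling.

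At the 8093 nilotinib end, when viability was about 90%, 45 of the 63 members fell and none rose, against 24.9% of all genes falling and 19.6% rising. The array ranges of start and end were alike here, and 37 to 53 members fell and none or 1 rose under the 9 alternative settings. The median core change was -0.52, that of the brightest 10% -0.29 and that of all genes -0.15. Of the core genes 40 fell (74.1%), and of the brightest 10% of genes 49.1% did. Both contrasts with bright genes rested on the first end array: without it the core median was -0.28 and that of the brightest 10% -0.26, and 25.9% of core genes and 43.1% of the brightest 10% fell. Without the second array the medians were -0.75 and -0.29. With both arrays the fall reached 18 of 21 genes of the 40S subunit (median -0.58), 19 of 30 of the 60S subunit (median -0.41) and all 3 of the P stalk (median -0.97), and without the first array 8, 5 and 1 of them. All 39 members with several probesets had all of them on one side of zero. Of the 219 member probesets 156 fell and 4 rose, beside 9809 of all 21789 probesets called in either direction. These values use both end arrays, and probesets of the same member are not independent.

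Without the first end array 16 members were called and without the other 52, and its macrophage markers averaged 10.74 against 9.16 on the second array, while the mast cell markers averaged 11.54 and 11.51. Those still called without it included Rps27l, Rps20, Rps13, Rplp2, Rpsa, Rps3, Rps12, Rps4x and Rpl10. Rps27l was at 7.15 and 8.04 at the end, a change of -1.55 ± 0.17 (adjusted p = 5.01e-09). Rps20, a 40S protein at the head of the subunit, was at 11.56, 11.40 and 11.29 at the start and at 9.74 and 10.55 at the end, with the midpoint between them at 10.75, 10.59 and 10.76. Its change was -1.27 ± 0.15 (adjusted p = 1.72e-08), and all end arrays lay below all start arrays. Rps13, a 40S protein, went from 9.89, 9.74 and 9.72 to 8.33 and 8.91, a change of -1.16 ± 0.13 (adjusted p = 4.83e-09).

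The P stalk recruits elongation factors to the ribosome and binds as a complex of Rplp0 with dimers of Rplp1 and Rplp2. Rplp2 was at 7.54, 7.49 and 7.61 at the start, 6.39, 6.72 and 7.08 at the midpoint and 5.92 and 6.67 at the end, a change of -1.25 ± 0.20 (adjusted p = 3.7e-06) with no overlap. Rplp1 fell by 0.97 ± 0.20 (adjusted p = 0.000124), from 12.88, 12.60 and 12.65 to 11.16 and 12.32, and Rplp0 by 0.73 ± 0.16 (adjusted p = 0.000426), from 12.89, 12.60 and 12.62 to 11.50 and 12.44. For both the first end array lay far below the second, and without it the changes were -0.39 and -0.27 and were no longer called.

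Other members of known role fell with them. Rpsa, a 40S protein also found as the laminin receptor, fell by 1.07 ± 0.16 (adjusted p = 2.56e-06), from 12.03, 11.77 and 11.83 to 10.37 and 11.25, and its 5 probesets changed by -1.07 to -0.78. Rps3, a 40S protein at the entry of the messenger RNA, changed by -1.05 ± 0.14 (adjusted p = 1.2e-07), and Rps12 by -1.03 ± 0.15 (adjusted p = 1.1e-06), with all 14 of its probesets called between -1.32 and -0.99. Rps4x changed by -0.84 ± 0.13, Rpl10, which is mutated in T-cell leukaemia, by -0.60 ± 0.13, and Rps6, the substrate of S6 kinase, by -0.48 ± 0.13 (adjusted p = 0.00359), the last from 12.82, 13.00 and 12.89 to 12.24 and 12.60. Rpl5, the partner of RPL11 in holding MDM2, changed by -0.40 ± 0.15 (adjusted p = 0.0292), but its arrays overlapped, at 12.09, 11.81 and 11.69 against 11.17 and 11.76. Without the first end array neither Rps6 (-0.30) nor Rpl5 (-0.11) was called. In all, 6 core genes fell at least 2-fold with a call: Rps20, Rplp2, Rps13, Rpsa, Rps3 and Rps12, of which 5 are 40S proteins. Without the first end array none of these 6 reached 2-fold, at -0.86, -0.88, -0.88, -0.62, -0.78 and -0.65 in the same order, and the 40S protein Rps15a was the 1 core gene that did (-1.07). Rps4x was then at -0.50 and Rps27l at -1.11.

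Not every core gene fell. Rpl21 was at 12.58, 12.65 and 12.59 at the start and at 13.08 and 12.74 at the end, a change of 0.30 that was not called (adjusted p = 0.0832), and Rpl41, Rpl38 and Rpl29 also lay above zero without a call. Rps19 was back at 7.83 and 7.87, a change from the start of -0.39 ± 0.30 (adjusted p = 0.311).

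**Figure D2:**
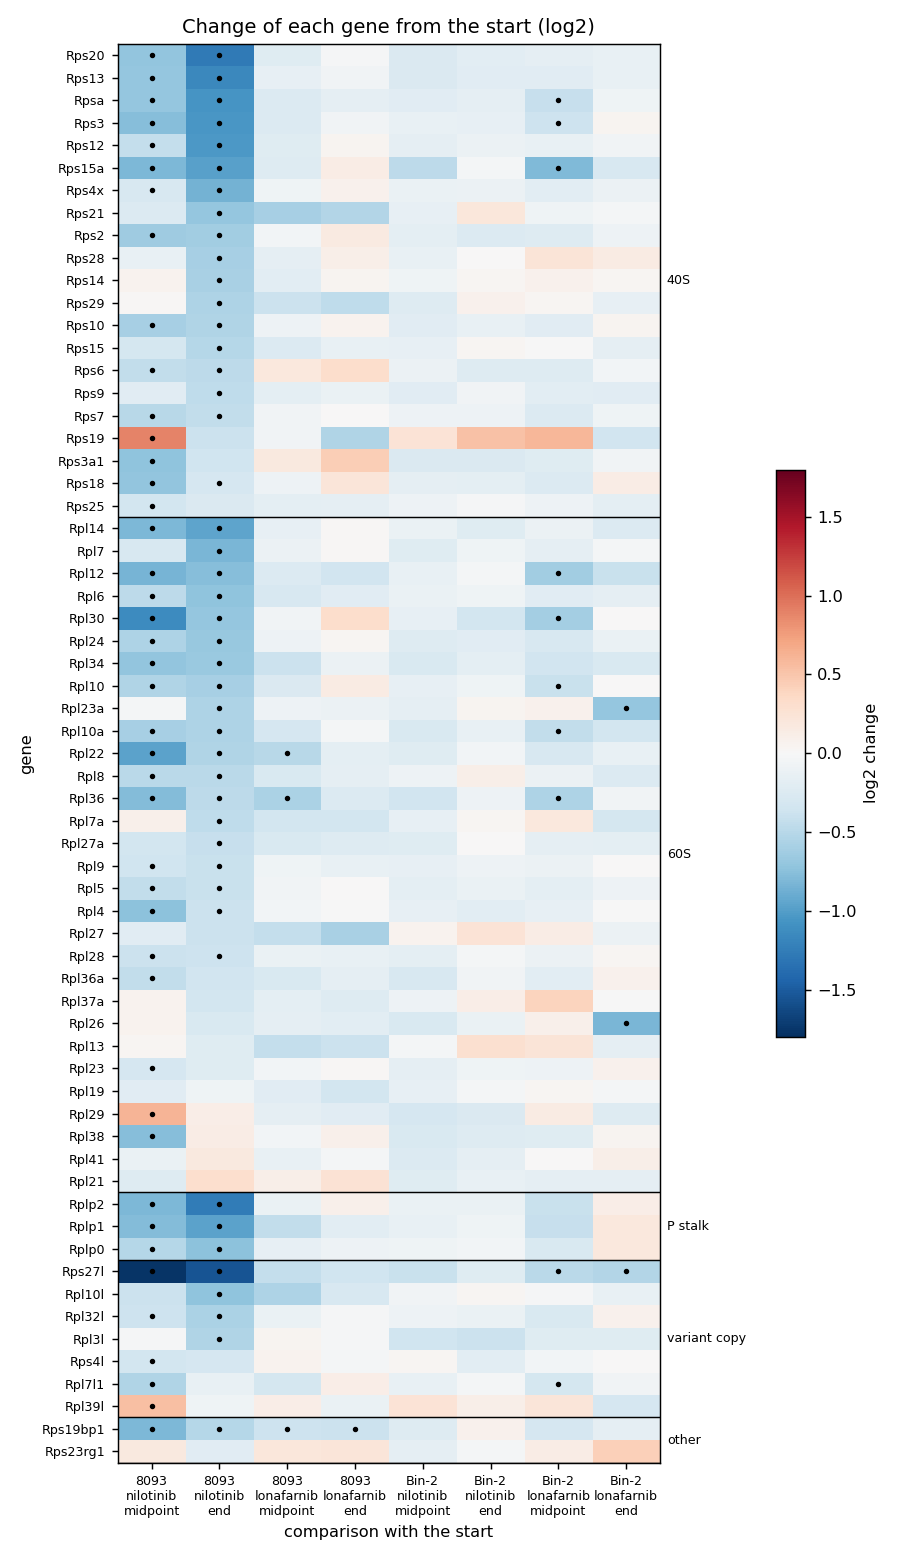
Log2 change from the own start (colour) for each of the 63 members (rows, grouped as 40S, 60S, P stalk, variant copies and other) in the 8 comparisons of midpoint or end with start. Dots mark changes with an adjusted p below 0.05. The 8093 nilotinib end holds 45 falls and no rise. The 40 falls at the 8093 nilotinib midpoint and the 10 at the Bin-2 lonafarnib midpoint are on the signals as deposited, and most members lay above zero there after interquartile scaling.

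Between the 8093 nilotinib midpoint and end, 8 members rose and 14 fell, against 26.7% and 27.8% of all genes. This split depended on the scaling: it was 11 up and 7 down after median centring, 1 up and 41 down after quantile normalization and 0 up and 49 down after interquartile scaling. Rps19 fell by 1.28 ± 0.30 (adjusted p = 0.000805), from 8.69, 8.95 and 9.76 to 7.83 and 7.87. Rps14 changed by -0.65 ± 0.19 and Rps12 by -0.60 ± 0.15, but without the first end array by -0.29 and -0.22, neither of them called. Rpl38 rose by 0.90 ± 0.12 (adjusted p = 3.5e-07), from 10.38, 10.48 and 10.64 to 11.61 and 11.19, a direction that only the interquartile scaling turned (-0.19) among the alternatives. The rises of Rpl21 (0.54 ± 0.14), Rpl30 (0.44 ± 0.15) and Rpl22 (0.42 ± 0.17) and the fall of Rpl39l (-0.62 ± 0.16) were likewise turned by it, and those of Rpl30 and Rpl22 also by quantile normalization. Rpl21 and Rpl30 were not called without the first end array, nor Rpl30 and Rpl22 without the second.

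In 8093 with lonafarnib few members were called. At the midpoint 3 members fell and none rose, against 6.90% and 3.89% of all genes, and 12 members had an unadjusted p below 0.05. They were Rpl36, a 60S protein, at -0.57 ± 0.17 (adjusted p = 0.0269), Rpl22 at -0.50 ± 0.15 (adjusted p = 0.0259) and Rps19bp1 at -0.38 ± 0.11 (adjusted p = 0.0193). Rpl22 was at 9.64, 9.47 and 9.61 at the start and at 9.02, 9.18 and 9.02 at the midpoint, without overlap. Rps27l was at 9.31, 9.16 and 9.43 and then at 9.19, 8.77 and 8.65, a change of -0.43 ± 0.15 that was not called (adjusted p = 0.0679). None of the 3 calls was made under quantile normalization or with 8093 arrays alone, and each was lost when some single arrays were left out. Markers of other cells moved here too: 9 of 10 mast cell markers rose, their mean going from 3.80 to 6.5, and 6 of 9 macrophage markers rose, their mean going from 5.65 to 7.6. Their part in these values was not tested. The median core change was -0.17, beside -0.10 for the brightest 10%. At the end 1 member fell, Rps19bp1 (-0.39 ± 0.12, adjusted p = 0.035, lost when either end array was left out), with 4.31% of all genes falling and 4.4% rising, and no core gene was called. Rps19bp1, also known as AROS, binds Rps19 and the deacetylase Sirt1. From midpoint to end 1 member rose, Rpl7l1 (0.43 ± 0.12, adjusted p = 0.0218, likewise lost without either end array), with 3.95% of all genes rising and 2.31% falling (6.26% in all).

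In Bin-2 with nilotinib no member was called by limma at the midpoint, at the end or between them, with 3.47%, 8.89% and 1.41% of all genes called in either direction. Of all genes 1.87% rose and 1.6% fell at the midpoint, 4.95% rose and 3.94% fell at the end, and 0.998% rose and 0.416% fell between them. Members with an unadjusted p below 0.05 numbered 6, 5 and 2. The median core changes from the start were -0.16 at the midpoint and -0.08 at the end, beside -0.06 and -0.09 for the brightest 10%. Rps27l was at 8.75, 8.96 and 8.71 at the start, 8.46, 8.42 and 8.35 at the midpoint and 8.65, 8.60 and 8.54 at the end, and neither change from the start was called. Rps20 was at 11.33, 11.36 and 11.35, then 11.03, 11.16 and 11.09, then 11.38, 11.03 and 11.04. Rplp2 was at 7.39, 7.37 and 7.64, then 7.32, 7.46 and 7.24, then 7.46, 7.38 and 7.20, overlapping throughout. The first end array stood out for Rps19, at 9.22 beside 7.97 and 7.82, and for Rpl26, at 7.36 beside 6.37 and 6.53.

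In Bin-2 with lonafarnib 10 members fell and none rose at the midpoint on the deposited signals, against 12% and 4.45% of all genes, while 21 rose and 2 fell after interquartile scaling and 2 rose and 2 fell after quantile normalization. The median core change was -0.17 as deposited, close to the -0.16 of the brightest 10%, and 0.42 after interquartile scaling. The largest falls were those of the 40S protein Rps15a (-0.79 ± 0.16, adjusted p = 0.00161), Rpl12 (-0.63 ± 0.19), Rpl30 (-0.62 ± 0.14) and Rpl36 (-0.56 ± 0.17). Of these Rps15a was called under all 8 alternatives (-0.85 to -0.54). After interquartile scaling Rpl12 was at -0.51, Rpl30 at -0.26 and Rpl36 at -0.13, none of them called, and Rpl12 and Rpl36 each lost their call in 3 of 6 fits without 1 array. Rps15a was at 9.27, 9.09 and 9.09 at the start, 8.53, 8.06 and 8.49 at the midpoint and 9.05, 8.79 and 8.75 at the end. Rps27l fell by 0.48 ± 0.15 (adjusted p = 0.0265), but was at -0.24 after interquartile scaling (adjusted p = 0.267) and lost its call in 4 of 6 fits without 1 array. Rpsa (-0.42) and Rpl10 (-0.40) were called on the deposited signals but lay at 0.20 and 0.25 after interquartile scaling. Leaving out any 1 array of these groups left 4 to 7 members called. On the same arrays 5 of 9 macrophage markers rose, their mean going from 6.51 to 7.96, and 5 of 10 fibroblast markers rose, their mean going from 4.96 to 5.62. Their part in these values was not tested.

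At the Bin-2 lonafarnib end 3 members were lower than at the start and none higher, against 3.41% and 4.66% of all genes, and 3 fell under each of the 9 alternatives. Rpl26, the 60S protein that binds the p53 message, was at 6.53, 6.58 and 6.65 at the start, 6.80, 6.49 and 6.74 at the midpoint and 5.82, 5.99 and 5.47 at the end. The 3 end arrays were its lowest of the series, and the change was -0.83 ± 0.19 (adjusted p = 0.00489). Rpl23a, a 60S protein at the exit of the nascent chain, was at 10.95, 10.86 and 10.84, then 10.99, 10.89 and 11.04, then 10.13, 10.22 and 10.22. It changed by -0.69 ± 0.12 (adjusted p = 0.000194), and all 13 of its probesets were called, between -0.89 and -0.69. Rps27l was at 8.84, 8.66 and 8.78, then 8.42, 8.25 and 8.17, then 8.23, 8.16 and 8.32, a change of -0.53 ± 0.15 (adjusted p = 0.0251). Its arrays at midpoint and end overlapped, and both lay below the start, but the call was lost in 4 of 6 fits without 1 array. Without the third end array Rpl26 missed the threshold (-0.68, adjusted p = 0.0526).

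Between the midpoint and end of this course 9 members rose and 5 fell, against 19.8% and 9.97% of all genes (29.7% in all), whereas none rose and 38 fell after interquartile scaling. All 3 genes of the P stalk rose on the deposited signals (Rplp1 0.61 ± 0.18, Rplp2 0.52 ± 0.18 and Rplp0 0.46 ± 0.15), but Rplp1 (-0.16) and Rplp0 (-0.33) turned with that scaling and Rplp2 (0.39) was no longer called. Without the third midpoint array none of the 3 was called, and Rplp2 was at 0.31. Rpl30 rose by 0.63 ± 0.14 and Rps15a by 0.50 ± 0.16, and both were at 0.22 without a call after interquartile scaling. Rpl26 (-0.92 ± 0.19), Rpl23a (-0.77 ± 0.12), Rps19 (-0.95 ± 0.27) and Rpl39l (-0.51 ± 0.15) fell. Rpl26 and Rpl23a were called under all 8 alternatives, and Rpl39l was at -0.16 without a call after interquartile scaling.

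**Figure D3:**
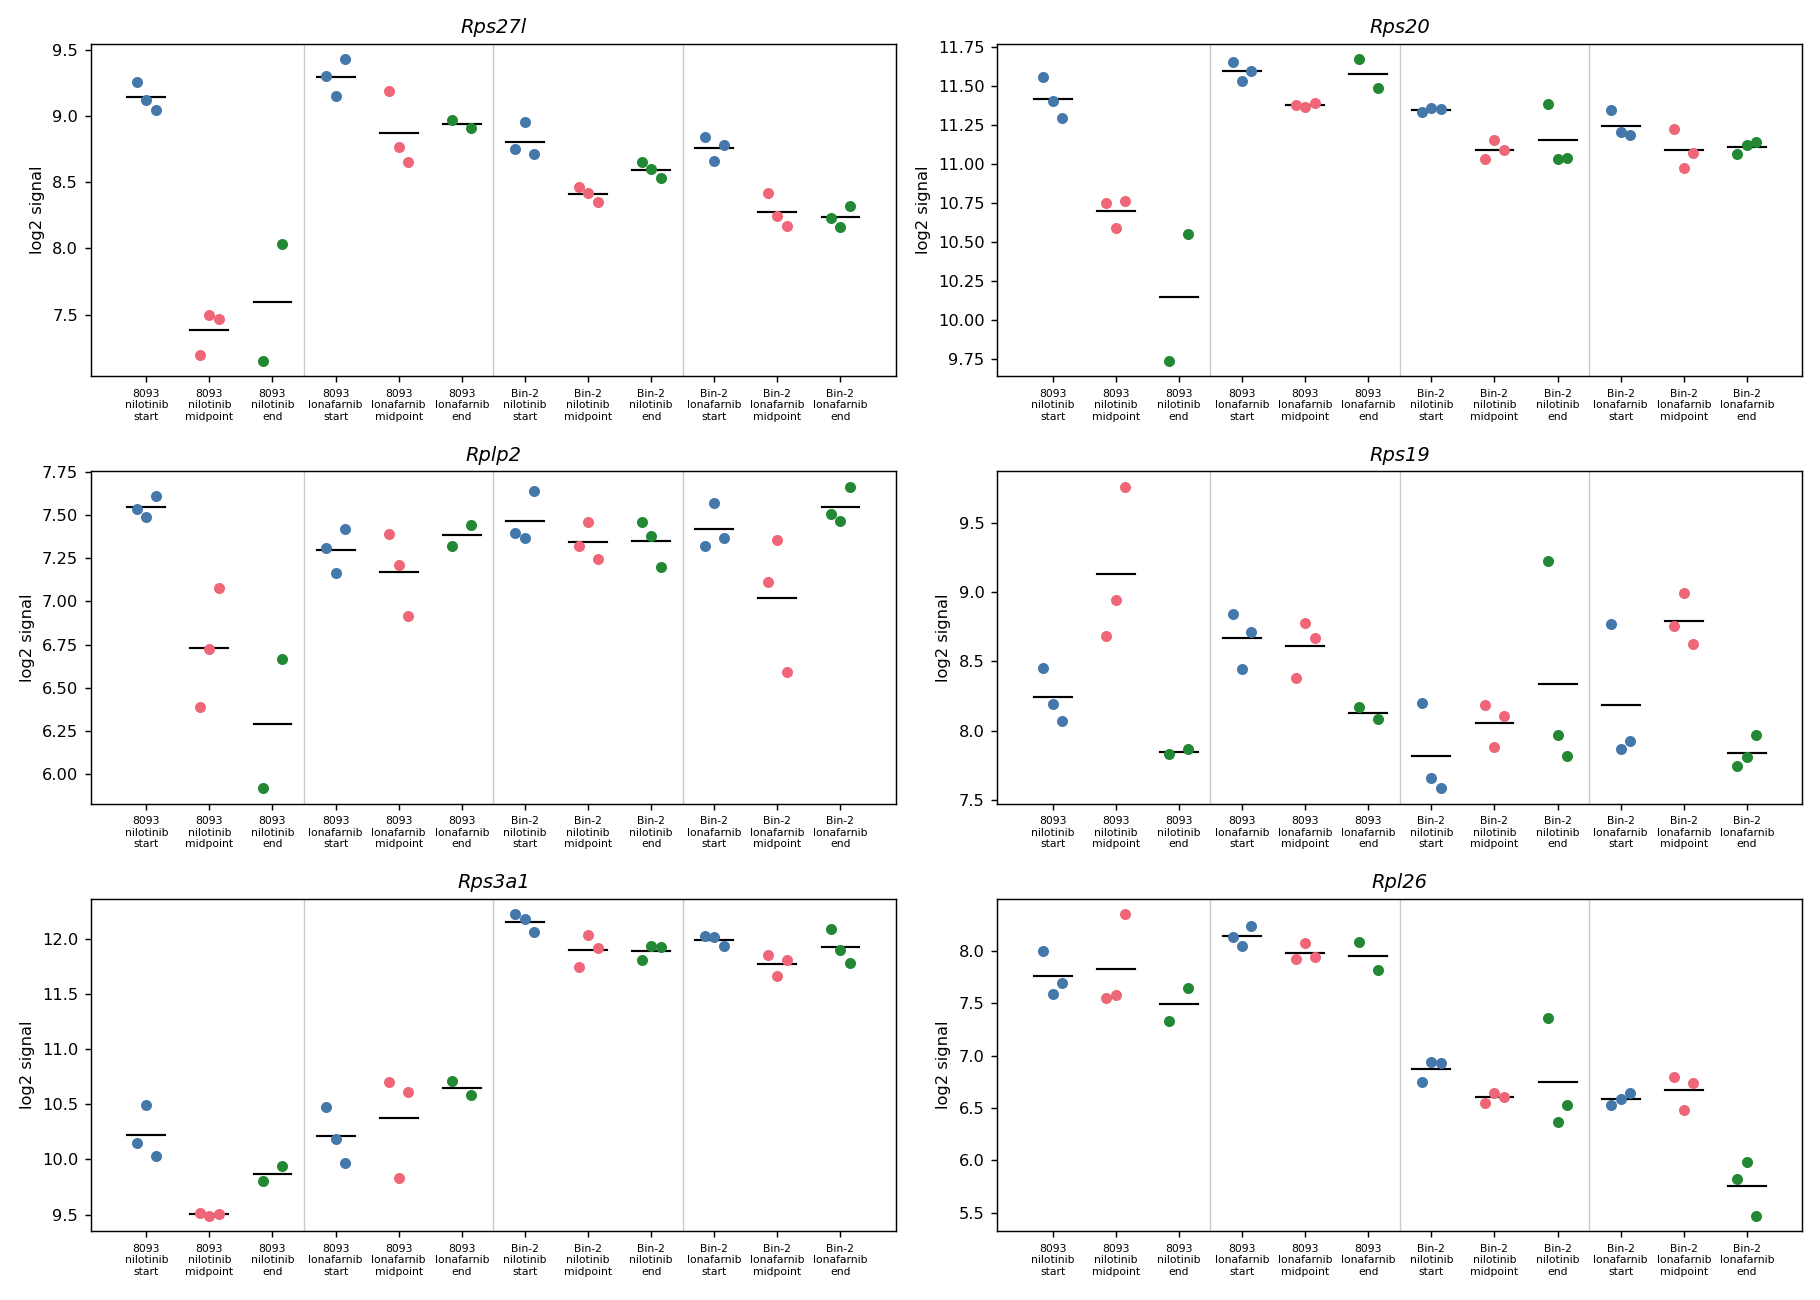
Log2 signal of 6 members on each array (points) with group means (lines). Rps27l, Rps20 and Rplp2 are low at the midpoint and end of 8093 with nilotinib. Rps19 is high at that midpoint, Rps3a1 lies near 12 in Bin-2 and near 10 in 8093, and Rpl26 is lowest at the Bin-2 lonafarnib end. The vertical axes differ and do not start at 0.

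The lines were also compared before drug, with both start groups of each. In Bin-2, 2 members were higher and 9 lower than in 8093, against 9.47% and 10.6% of all genes (20.1% in all). Rps3a1, a 40S protein, was at 12.22, 12.18, 12.06, 12.02, 12.01 and 11.94 in Bin-2 and at 10.14, 10.50, 10.03, 10.47, 10.19 and 9.96 in 8093, a difference of 1.86 ± 0.11 (adjusted p = 4.58e-14). It held throughout the courses, where Bin-2 arrays read 11.66 to 12.08 and 8093 arrays 9.49 to 10.71. The lines differ in strain background, and whether the probes bind both alleles alike was not tested. Rpl26 was lower in Bin-2 by 1.22 ± 0.14 in log2 units (adjusted p = 3.64e-08), at 6.75, 6.94, 6.93, 6.53, 6.58 and 6.65 against 8.0, 7.59, 7.69, 8.14, 8.05 and 8.24. Rps27l (-0.43 ± 0.11, adjusted p = 0.00288) and Rps28 (-0.40 ± 0.09, adjusted p = 0.00145) were lower without overlap, and Rpl10 was higher by 0.23 with overlap, a call lost in 8 of 12 fits without 1 array. The median core difference was -0.13, and that of the brightest 10% -0.03.

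The start groups of the 2 drugs should be alike within a line, since no drug had been added. No member was called between them in either line by limma, and 0% of all genes were, in either direction. In Bin-2 1 member had an unadjusted p below 0.05 and the median core difference was -0.05. In 8093, 16 members did, and the lonafarnib start lay above the nilotinib start with a median core difference of 0.19, beside 0.04 for the brightest 10%.

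Whether the lines or the drugs differed in their response was tested on the difference of the changes. The change from start to midpoint in 8093 was lower with nilotinib than with lonafarnib for 17 members and higher for 1 (17.6% and 9.19% of all genes), but 4 were lower and 15 higher after interquartile scaling. At the end it was lower for 24 members and higher for none (17.4% and 15.7% of all genes), and for 18 to 33 under the alternatives. These 24 comprised 14 genes of the 40S subunit, 6 of the 60S subunit, all 3 of the P stalk and Rps27l. The differences were -1.34 ± 0.28 for Rplp2, -1.26 ± 0.21 for Rps20, -1.19 ± 0.24 for Rps27l and -1.11 ± 0.26 for Rps15a. In Bin-2 the response differed between the drugs for no member at the midpoint, where 1.48% of all genes were called and 2 members had an unadjusted p below 0.05, and for 1 at the end (4.65% of all genes were higher with nilotinib), Rpl23a, at 0.74 ± 0.17 (adjusted p = 0.00451).

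The nilotinib response of Bin-2 lay above that of 8093 for 13 members and below it for 1 at the midpoint (18.0% and 8.01% of all genes), and after interquartile scaling for 4 and 21. At the end it lay above for 21 members and below for none (15.6% and 15.0%), and above for 17 to 37 under the alternatives. The differences at the end were 1.34 ± 0.23 for Rps27l (adjusted p = 2.13e-05), 1.13 ± 0.27 for Rplp2, 1.07 ± 0.20 for Rps20 and 0.95 ± 0.17 for Rps13. These tests share the 8093 nilotinib arrays with those between the drugs. They also set unequal doses and days side by side, and without the first 8093 end array 8 members were called here and 13 between the drugs. Rps27l was then at 0.90 here and at -0.75 between the drugs, and Rps20 at 0.67 and -0.85. The markers of the end cultures differed as well. Pre-B markers averaged 5.46 in 8093 with nilotinib, 8.73 in 8093 with lonafarnib and 9.49 in Bin-2 with nilotinib. Mast cell markers averaged 11.52, 5.24 and 7.33 in the same order, and the part of such cells in these differences was not tested. For lonafarnib no member's response differed between the lines at the midpoint or the end, where 4.20% and 4.61% of all genes were called and 6 and 4 members had an unadjusted p below 0.05.

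The variant copies were mostly dim. Rpl39l, Rpl3l and Rpl10l had group means of 2.71 to 4.37, below the median of all genes, and Rps4l of 5.3 to 5.71. At the 8093 nilotinib end Rpl10l (-0.73 ± 0.25), Rpl3l (-0.54 ± 0.15) and Rpl32l (-0.57) fell along with Rps27l, and none of the 7 rose. Without the first end array only Rps27l of these 4 was called. Rpl7l1, which acts in the assembly of the large subunit, went from 9.04, 8.87 and 8.90 to 8.47, 8.38 and 8.35 at the 8093 nilotinib midpoint and was at 8.53 and 9.08 at the end.

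The pathway around the ribosome was read from lists of other genes. Mitochondrial ribosomal proteins, which serve a separate ribosome, fell in 70 of 77 cases and rose in 1 at the 8093 nilotinib midpoint (median -1.03) and fell in 55 and rose in 1 at the end (median -0.66). Of 27 ribosome biogenesis genes 26 fell at either time and none rose, with medians of -1.16 and -1.29. These directions held after interquartile scaling at the midpoint, where 71 mitochondrial genes fell and 1 rose and 23 biogenesis genes fell and none rose. Of 19 chaperones and late subunit factors all fell at the midpoint (median -1.20), and 15 fell and 1, Riok1, rose at the end (median -0.74). Riok1 was not called at the end after interquartile scaling (0.29) or median centring (0.46). Among them Grwd1, which carries free Rpl3, changed by -1.54 and -1.88, Tsr2, which carries Rps26, by -1.20 and -1.18, and Nmd3, the export adaptor of the 60S subunit, by -1.27 and -1.62. All 19 also fell at the midpoint after interquartile scaling, with a median of -0.96. At that midpoint these lists kept a direction that the core genes did not keep. On narrow arrays, however, interquartile scaling lifts a gene more the further it lies above the array median. At the 8093 nilotinib start the core genes averaged 10.87, mitochondrial ribosomal proteins 7.89 and biogenesis genes 9.32. The lists also fell further on the deposited signals. Whether they differ from the core genes beyond brightness and size of fall was not tested.

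Other TOP messages gave 13 falls and 1 rise among 19 genes at the midpoint as deposited (median -0.59) but 4 falls and 9 rises after interquartile scaling, and 12 falls and 1 rise at the end (median -0.38), where 6 fell and none rose without the first end array. Elongation factor genes Eef1b2 (-0.91 and -1.18) and Eef1d (-0.94 and -1.48) and the nucleolar chaperone Npm1 (-1.02 and -0.98) fell at both times, although at the midpoint Eef1b2 and Npm1 were not called after interquartile scaling (-0.33 and -0.29), while Eef2 changed by -0.19 and -0.18 without a call. Of 16 genes that control TOP messages, 2 rose and 6 fell at the midpoint and 5 rose and 2 fell at the end, and 4 rose and 5 fell, then 3 rose and 4 fell, after interquartile scaling. Larp1 fell at both times (-1.31 and -1.63), also after that scaling. Of the p53 circuit, Trp53, Cdkn1a and Bax had no probeset of a single symbol. At the 8093 nilotinib end the median change of the 6 measured genes was 0.21 without the first end array and 0.38 without the second. Ccng1 was at 0.66 there after quantile normalization and at 0.52 after interquartile scaling, called in both. Mdm2 was at 0.31 and 0.19, the last not called. At the 8093 nilotinib midpoint Ccng1 and Mdm2 were at -0.32 and -0.38 after median centring, and at 0.58 and 0.14 after interquartile scaling. With lonafarnib at the 8093 midpoint 5 of 6 measured genes of this circuit rose and none fell (median 0.69), against 3.89% and 6.9% of all genes. Ccng1, a p53 target, rose by 1.03 and Mdm2 by 0.75, and 5 of the 6 also rose after each of the median and interquartile scalings. At the Bin-2 lonafarnib midpoint 4 of these rose and 1 fell on the deposited signals, and 4 rose and none fell after interquartile scaling. Mdm2 was not among them (0.06). At these 2 midpoints mitochondrial ribosomal proteins fell in 54 and 44 of 77 cases, with medians of -0.45 and -0.37, and in 37 and 21 cases after interquartile scaling.

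**Figure D4:**
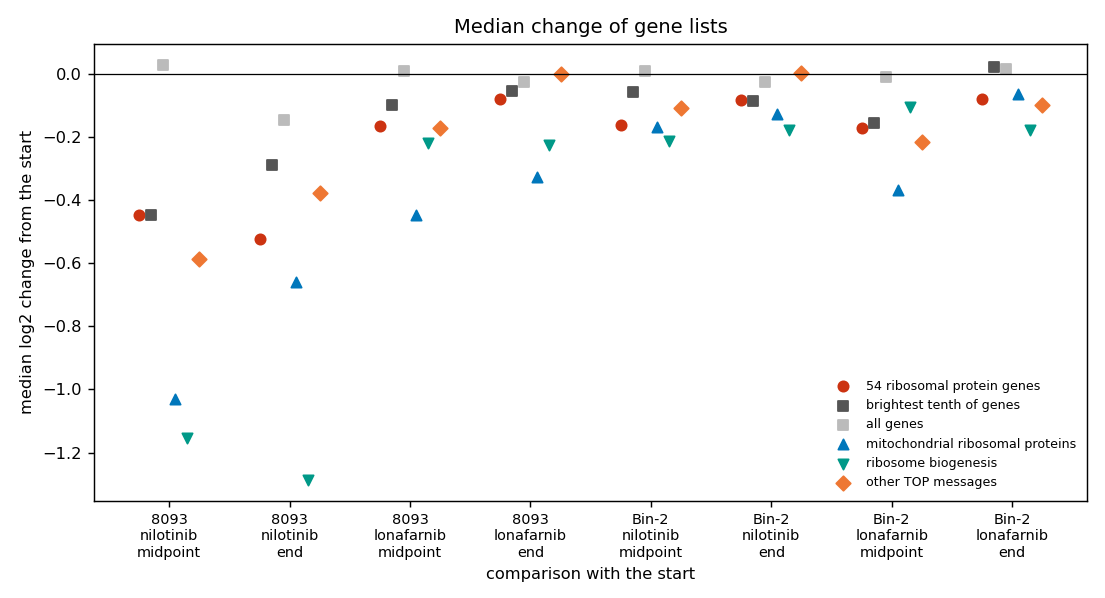
Median log2 change from the own start of the 54 core genes and of other gene lists (markers) in the 8 comparisons with the start. At the 8093 nilotinib end the core median is -0.52, the brightest 10% of genes -0.29 and ribosome biogenesis -1.29. Without the first end array these are -0.28, -0.26 and -1.10. Values are on the signals as deposited, and the core medians of the 8093 nilotinib midpoint and the Bin-2 lonafarnib midpoint were above zero after interquartile scaling.

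Over the 12 group means most core genes varied together. The correlation of a gene with the mean of the other core genes had a median of 0.86, exceeded 0.5 for 45 of 54 and was below 0 for Rpl29 (-0.47), Rpl21 (-0.15), Rpl41 (-0.13) and Rps19 (-0.07). The genes outside the members whose group means ran most like the members' mean were Eef1b2, another TOP message (Pearson r = 0.99), H2ax (0.98), Kdm8 (0.98), Fkbp3 (0.98) and Lmnb2 (0.98). These coefficients describe 12 groups that share arrays, normalization and cell composition, and carry no test.

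**Figure D5:**
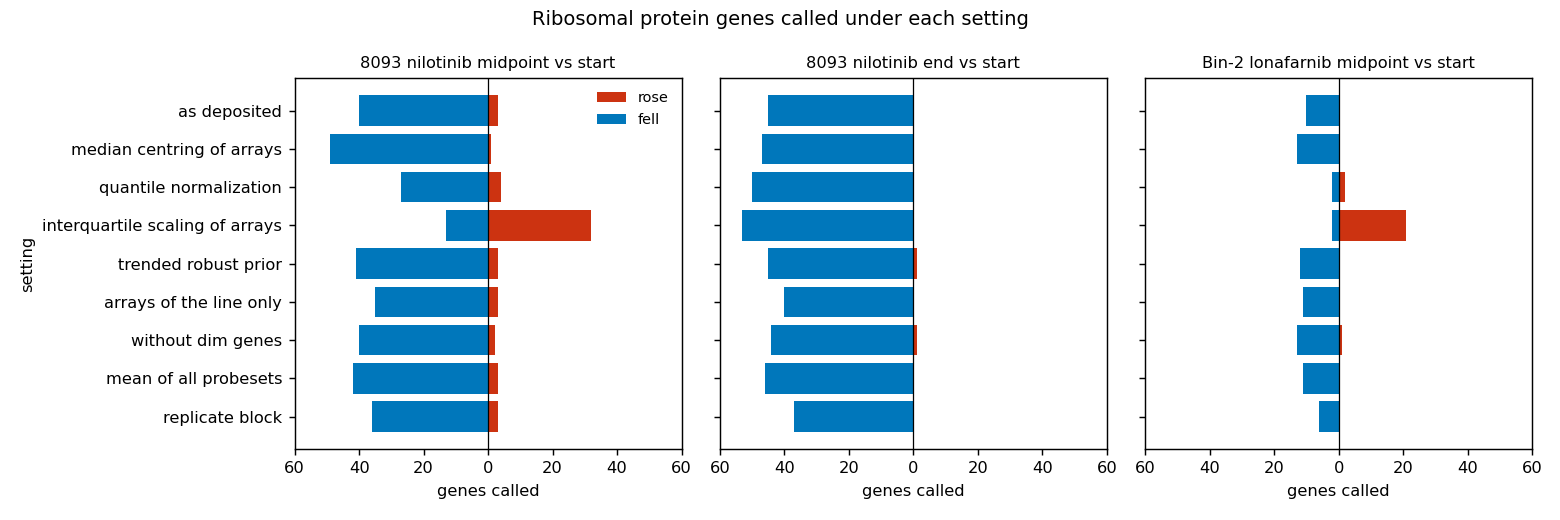
Number of the 63 members called as rising (right) or falling (left) under each processing setting, for 3 comparisons with the start. The 8093 nilotinib end keeps 37 to 53 falls under every setting shown. At the 8093 nilotinib midpoint and the Bin-2 lonafarnib midpoint the interquartile scaling turns 40 and 10 falls into 32 and 21 rises.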

How the data were processed

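RNA of 34 plates in 12 groups was measured on Affymetrix mouse gene arrays. The values are log2 signals that the authors deposited for 35557 probesets. The submitters' processing notes name Partek. No version, background correction or normalization is given in the sources used here. The labels give lonafarnib doses in µM in the treatment protocol and in mM in the design text, and µM is used here. Probesets were named from the platform's gene table: 21789 had 1 symbol, 1621 several and 12147 were not listed. The probeset of highest mean signal stood for each of 19938 genes. All 12 group means were fitted with limma 3.58.1 in R 4.3.3 (lmFit and eBayes, 22 residual and 6.70 prior degrees of freedom), with Benjamini-Hochberg adjustment over all genes in each of 23 comparisons and a threshold of 0.05. The script was tested on simulated data. Standard errors follow the ± sign.

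Up to 4 rising and 4 falling members of largest change without overlap between arrays were named per comparison, with fixed genes of known role. Other members are named for what their values show. Members, gene lists and comparisons were chosen with earlier results of these data known, and Rpl32l was put with the copies after the array files were read. Replicates are separate plates of 1 line per the labels, so p-values measure the spread between plates. The number of arrays limits the precision. Alternatives were quantile normalization, median centring, interquartile scaling, a trended robust prior, a filter on genes with a mean under 6, the mean of all probesets, the replicate number as a block, arrays of 1 line (or the start arrays) alone and leaving out each array. Promoters are from RefSeq.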

Additional observations from a re-analysis of the deposited data

Results flagged for a closer look

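Responses of some members differed between the drugs within 8093, where 26.8% of all genes were called at the midpoint and 33.2% at the end. At the midpoint 18 of the 63 members differed (nilotinib minus lonafarnib), most of them lower with nilotinib, but after interquartile scaling most of those called were higher. Rpl29 was at 0.78, Rps27l at -1.33, Rpl30 at -1.07, Rps3a1 at -0.89 and Rpl38 at -0.71. After interquartile scaling Rps3a1 was at -0.43 and Rpl38 at -0.09, neither called, and Rpl29 was at 0.51 without the third 8093 nilotinib midpoint array and lost its call in 5 of 12 fits without 1 array. At the end 24 did, with Rplp2 at -1.34, Rps20 at -1.26, Rps27l at -1.19 and Rps15a at -1.11, and all 4 were called in each fit without 1 array, Rps27l at -0.75 without the first nilotinib end array. In Bin-2 1 member differed, at the end, where 9.51% of all genes were called: Rpl23a at 0.74.

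Responses of some members to nilotinib differed between the lines, which received unequal doses. Of all genes 26% were called at the midpoint and 30.6% at the end. At the midpoint 14 of the 63 members differed (Bin-2 minus 8093), most of them higher in Bin-2, but after interquartile scaling most of those called were lower. Rps27l was at 1.36, Rpl30 at 0.98, Rpl22 at 0.74, Rplp2 at 0.69 and Rpl29 at -0.92. Rplp2 lost its call in 9 of 12 fits without 1 array, and neither Rplp2 (0.61) nor Rpl22 (0.44) was called after interquartile scaling. At the end 21 did, with Rps27l at 1.34, Rplp2 at 1.13, Rps20 at 1.07 and Rps13 at 0.95. Each of these differences was tested in limma as a difference of changes, and the midpoint values rest on the arrays of narrow range. Mast cell markers moved with the same contrast: their mean per array reached 9.53 to 10.43 at the 8093 nilotinib midpoint and 4.05 to 4.66 at the Bin-2 nilotinib midpoint. At the nilotinib end their mean was 11.52 in 8093 and 7.33 in Bin-2, and that of the pre-B markers was 5.46 and 9.49. The part of these other cells in the differences was not tested. No group had 4 or more arrays, so single arrays were not tested as outliers.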

How the results depend on the processing

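Counts are of members called. From 8093 nilotinib midpoint to end they were 42 with quantile normalization and 49 with interquartile scaling. For 8093 lonafarnib they were 0 (quantile), 7 (centring), 5 (trended prior), 7 (no dim genes) and 0 (line alone) at the midpoint; 0 at the end with centring, the block or the line alone; and from midpoint to end 3 with centring, the trended prior or no dim genes, 2 with mean probesets and 0 with interquartile scaling, the block or the line alone. For Bin-2 nilotinib they were 1 at the midpoint (line alone) and 1, 6 and 1 at the end (quantile, centring, interquartile). For Bin-2 lonafarnib they were 4, 23 and 6 at the midpoint (quantile, interquartile, block) and 38 from midpoint to end (interquartile). Between the lines before drug they were 6 (interquartile) and 2 (block). For nilotinib minus lonafarnib they were 11 at the 8093 midpoint (line alone), 2 at the Bin-2 midpoint (interquartile) and 2 at the Bin-2 end (centring or trended prior). For Bin-2 minus 8093 they were 6 and 25 at the nilotinib midpoint (quantile, interquartile), 37 at the nilotinib end (quantile), 2 and 1 at the lonafarnib midpoint (interquartile, no dim genes) and 1 at the lonafarnib end with quantile, the trended prior, no dim genes or mean probesets. The cause was not tested.

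Interquartile scaling reversed, at the 8093 nilotinib midpoint, Rpl39l (-0.14), Rpl5 (0.51), Rpl10 (0.49), Rps4x (0.65), Rps6 (0.72), Rplp0 (0.61), Rplp1 (0.29) and Rpsa (0.22); from there to the end Rpl38 (-0.19), Rpl21 (-0.98), Rpl30 (-0.16), Rpl22 (-0.070), Rpl39l (0.093) and Rpl3l (0.0023); at the Bin-2 lonafarnib midpoint Rpl10 (0.25) and Rpsa (0.20); and from there to the end Rplp1 (-0.16), Rpl10 (-0.33) and Rplp0 (-0.33). Quantile normalization reversed Rpl30 (-0.012) and Rpl22 (-0.013) from 8093 nilotinib midpoint to end.

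Leaving out 1 array gave 35 to 43 members at the 8093 nilotinib midpoint, 16 to 52 at its end and 11 to 27 between them; 0 to 4, 0 to 1 and 0 to 1 for 8093 lonafarnib; 0 to 0, 0 to 1 and 0 to 0 for Bin-2 nilotinib; and 4 to 7, 2 to 3 and 8 to 14 for Bin-2 lonafarnib. It gave 6 to 19 between the lines, 0 to 1 and 0 to 0 between the starts of 8093 and of Bin-2, 10 to 18 and 13 to 35 between the drugs in 8093, 0 to 0 and 1 to 2 in Bin-2, and 10 to 14, 8 to 36, 0 to 1 and 0 to 1 between the lines' responses. Deviations of same-numbered samples from their group means correlated at -0.18 to 0.16 over 32 pairs, and those of samples of unlike number at -0.23 to 0.27 over 64. With 2 or 3 arrays a group the deviations depend on each other, so these values cannot decide whether replicate numbers pair the samples. The replicate block is given as an alternative, with 36 falls and 3 rises at the 8093 nilotinib midpoint and 37 falls at its end. The fit without both narrow midpoint groups, chosen after seeing the data, gave 44 falls at the 8093 nilotinib end. Fits of 1 line could not be run for differences between lines, and the filter on dim genes gives no value for Rpl39l, Rpl3l, Rpl10l and Rps4l.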
